A study of Mus musculus with 12 samples.

Results

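Potassium channel genes were followed in the aortas of 3 inbred mouse strains. All genes whose symbol on the array begins with Kcn were taken, and 90 of the 22180 genes measured met this rule. RNA was measured on 12 arrays of the type Mouse Gene 2.1 ST (Affymetrix), on which the probes of a transcript form a cluster, and each array held a pool of mice. Arch tissue came from mice of the strains DBA/2J (called DBA), C57BL/6 (called B6) and 129S6/SvEvTac (called 129), and aortic root tissue from 129 mice, with 3 arrays in each of the 4 groups. Arch pools held 5 mice, except that B6 arch 1 held 4, and root pools held 6. The mice were male wild-type animals of 2 to 5 months on regular chow, per the labels, although the series' design text also names the apoE-deficient lines. The sample descriptions of the root arrays say arch, whereas their titles and tissue labels say root, and the titles were followed. Root tissue was available from 129 mice only, so that root and arch were compared within that strain. A pool of whole tissue cannot tell fewer cells of a type from less RNA per cell.

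Potassium channels let potassium ions leave or enter a cell and thereby set its membrane potential. In arterial smooth muscle, opening them hyperpolarises the membrane, closes voltage-dependent calcium channels and relaxes the vessel, while in heart muscle they end the action potential and set the resting potential. Pore-forming subunits fall into voltage-gated, inward rectifier, calcium- or sodium-activated and two-pore families, and accessory subunits change their gating or carry them to the membrane.

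By class, the 90 members comprised 15 voltage-gated subunits of the Kv1 to Kv4 families, 10 silent modifiers that form no channel alone, 8 eag-related subunits, 3 Kcnq subunits, 14 inward rectifiers, 13 two-pore channels, 8 calcium- or sodium-activated channels, 16 accessory subunits and 3 other genes. The 3 other genes were the long non-coding RNAs Kcnq1ot1 and Kcnd3os and the regulator Kcnrg. Kcnj13, Kcnk3 and Kcnmb4os1 lay only on clusters that carry several gene symbols and were not measured. Values are log2 intensities as deposited, and levels of different genes on an array also depend on their probes, so that tests compare each gene only with itself across arrays. The mean level lay above that of the median gene, which was 5.63 on the log2 scale, for 25 members, and 65 lay at or below it.

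Of the arrays, 2 stood apart from their groups. DBA arch 2 had a summed linear intensity of 13 heart muscle markers of 37670, against 1414 and 1484 on the other DBA arrays, and a sum of 5 lung epithelium markers of 5862, against 108 and 68.0. B6 arch 1 had a sum of 6 hepatocyte markers of 9554, against 123.5 and 127.1 on the other B6 arrays, and a sum of 4 brown fat markers of 2360, against 17660 and 13710. Between the 129 tissues, heart muscle markers summed to 17880 to 27080 in root against 1623 to 2786 in arch, and brown fat markers to 702.5 to 1492 in root against 12540 to 15020 in arch. Sums of 7 T cell markers were 244.8 to 316.5 in root and 1009 to 1975 in arch, sums of 5 macrophage markers 2279 to 2614 and 639.3 to 935.4, and sums of 5 chondrocyte markers 2215 to 2633 and 519.6 to 690.5. Sums of 3 mesothelium markers were 1287 to 1471 in root and 280.4 to 442.6 in arch, sums of 5 fibroblast markers 15240 to 18170 and 12070 to 13200, and sums of 3 adipocyte markers 209.2 to 316.4 and 2310 to 2636. Smooth muscle markers, 8 of 8 measured, were bright in both tissues, with sums of 39920 to 41430 in root and 36960 to 38150 in arch, as the label of a vessel implies. The part of each cell type in the results below was not tested.

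The promoters of a pair of channel genes that were higher in the 129 root, Kcnj3 and Kcnj5, and of a pair that were lower, Kcna4 and Kcna5, are shown as examples of members called in each direction. None of these 4 calls held with all 12 arrays in 1 fit. The 250 bases before the start of each gene, from RefSeq on build GRCm38.p6, are given on the gene's own strand. They lie at chr2:55435720-55435969 (plus strand) for Kcnj3, chr9:32344345-32344594 (minus strand) for Kcnj5, chr2:107290339-107290588 (plus strand) for Kcna4 and chr6:126535556-126535805 (minus strand) for Kcna5. Capitals mark matches on either strand to the T-box core, which reads AGGTGT. They also mark the core bound by the heart factor NKX2-5, which reads CAAGTG, and the SP1 box, which reads GGGCGG. The motif AGATAA, to which GATA factors bind, was searched as well.
Kcnj3: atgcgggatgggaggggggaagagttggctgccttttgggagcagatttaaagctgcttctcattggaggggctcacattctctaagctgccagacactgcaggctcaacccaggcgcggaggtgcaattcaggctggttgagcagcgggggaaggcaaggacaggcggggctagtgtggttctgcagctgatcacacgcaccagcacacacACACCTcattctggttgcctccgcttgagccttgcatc
Kcnj5: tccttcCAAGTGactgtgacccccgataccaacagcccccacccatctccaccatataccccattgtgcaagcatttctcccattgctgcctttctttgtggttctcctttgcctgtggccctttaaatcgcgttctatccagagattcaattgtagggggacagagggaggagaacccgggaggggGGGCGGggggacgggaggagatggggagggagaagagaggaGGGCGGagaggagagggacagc
Kcna4: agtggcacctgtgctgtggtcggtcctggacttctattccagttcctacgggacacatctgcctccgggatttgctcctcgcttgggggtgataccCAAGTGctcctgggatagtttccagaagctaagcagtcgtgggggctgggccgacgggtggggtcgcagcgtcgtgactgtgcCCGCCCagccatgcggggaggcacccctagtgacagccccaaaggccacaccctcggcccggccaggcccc
Kcna5: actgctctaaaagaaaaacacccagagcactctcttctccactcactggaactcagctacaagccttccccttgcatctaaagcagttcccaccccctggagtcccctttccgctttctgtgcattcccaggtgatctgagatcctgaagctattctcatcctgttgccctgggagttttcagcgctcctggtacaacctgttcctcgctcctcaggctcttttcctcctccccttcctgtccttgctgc

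Kcnj3 held a match to the T-box core only, Kcnj5 a match to the NKX2-5 core and SP1 boxes, and Kcna4 a match to the NKX2-5 core and an SP1 box, whereas Kcna5 held none of the motifs. Promoter windows were found for 70 members (95 windows) among 32851 windows of 27025 genes. The T-box core was in 15.8% of member windows and 11.8% of all windows, the NKX2-5 core in 14.7% and 11.6%, the SP1 box in 44.2% and 32.7%, and the GATA site in 3.16% and 9.99%. Median GC content was 58.8% in member windows and 52.4% in all. Such matches describe the letters and are not binding sites.

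Brightness depends on the probes as well as on the RNA, so that the brightest members are given as a description and not as an order of abundance. They included the subunits of the large-conductance calcium-activated (BK) channel and the smooth muscle subunit of the ATP-sensitive channel. Kcnmb1, the BK accessory subunit that raises the channel's calcium sensitivity in smooth muscle, averaged 12.07 over the 12 arrays. It was 12.01, 12.04 and 12.14 in DBA arch, 12.23, 11.88 and 12.12 in B6 arch, 12.07, 11.87 and 12.13 in 129 root and 12.11, 12.11 and 12.13 in 129 arch. All groups overlapped. The log2 difference of Kcnmb1 between root and arch was -0.09 ± 0.10 (SE), with a 95% confidence interval of -0.32 to 0.14 (limma, adjusted p = 0.584).

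Kcnma1, the BK pore, was 9.93, 9.92 and 10.08 in DBA arch and 9.92, 9.60 and 9.78 in B6 arch. It was 10.25, 9.96 and 10.07 in 129 root, above 9.87, 9.84 and 9.75 in 129 arch without overlap, by 0.27 ± 0.10 on the log2 scale (adjusted p = 0.131). These values come from the brighter of the 2 clusters named for Kcnma1, and the other cluster behaved differently (as the plot of both Kcnma1 clusters shows). Kcnj8, the pore of the vascular ATP-sensitive channel, averaged 9.26 over all arrays. It was 9.07, 9.03 and 8.92 in 129 root and 9.27, 9.29 and 9.25 in 129 arch, without overlap, a log2 difference of -0.27 ± 0.08 (adjusted p = 0.0789). Abcc9, the sulfonylurea receptor that pairs with Kcnj8, had a log2 difference of -0.31 ± 0.08 and did not pass the test (adjusted p = 0.0526).

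Kcna4, a fast-inactivating voltage-gated pore best known from heart and brain, averaged 10.87, and Kcnj15, an inward rectifier, 9.01. Kcnh2, the pore of the rapid delayed rectifier of the heart, averaged 8.58, the sodium-activated Kcnt2 8.33 and the accessory subunit Kcne4 8.11. Kcnd3, a pore of the transient outward current, averaged 7.53, and the voltage-gated Kcnc4 7.49. Of these, Kcnd3 stayed within 7.33 to 7.80 over all 12 arrays.

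**Figure D1:**
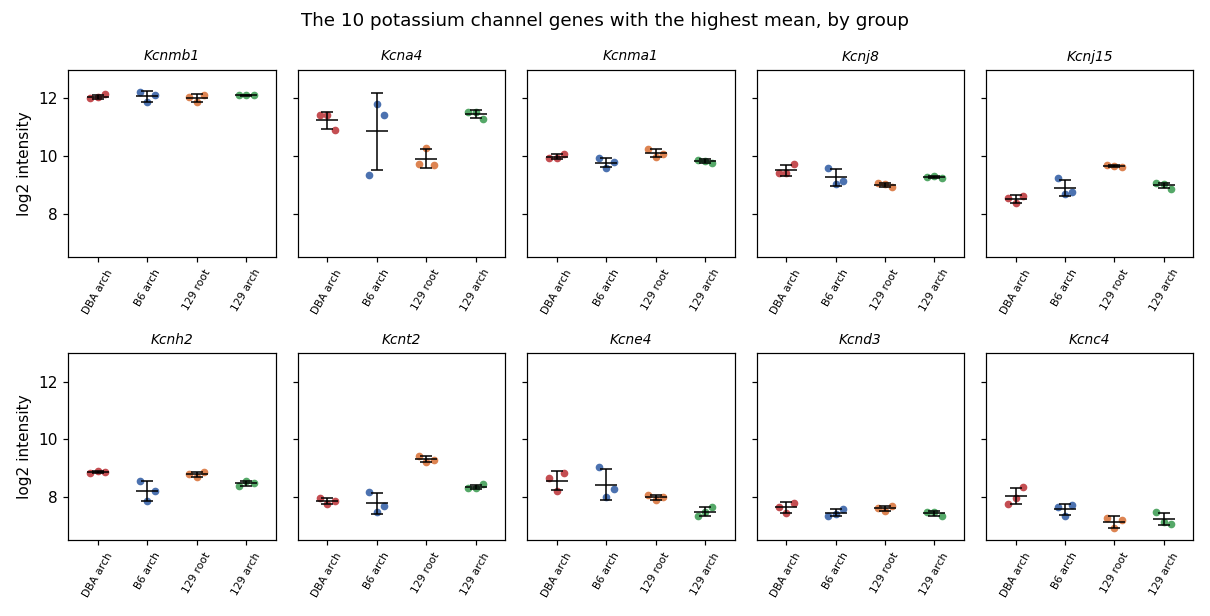
Log2 intensity (vertical axis) of the 10 members with the highest mean, by group (horizontal axis), with points for the 3 arrays of a group and bars for mean ± SD. Kcnmb1 sits near 12 in all groups, while Kcna4 is lower in 129 root (9.71 to 10.28) and on B6 arch 1 (9.34) than on the other arch arrays (10.91 to 11.81).

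The comparison of 129 root with 129 arch asked which channel genes differ between the segments of the vessel. Of the 90 members, 24 (26.7%) passed an adjusted p of 0.05 in limma fitted to the 22180 genes, against 15.8% of all genes. Of these, 19 were higher in root (21.1%), against 8.36% of all genes, and 5 were lower (5.56%), against 7.45%. The median log2 difference was 0.082 over the members and 0.001 over all genes. The arrays of root and arch did not overlap for 39 members (43.3%), against 35.8% of all genes. Members above the median gene level split into 5 higher and 5 lower of 25, and those below it into 14 higher and none lower of 65. The shares of all genes at like levels were not counted, and a gene near the floor in arch has little room to fall. This split is therefore not a result about the members. At an unadjusted p under 0.05 there were 34 members (37.8%), against 29.3% of all genes. By class, 6 of 15 voltage-gated subunits passed, 3 in each direction, 4 of 14 inward rectifiers, 3 of 8 calcium- or sodium-activated channels and 2 of 13 two-pore channels, all higher, and 5 of 16 accessory subunits, with 4 higher. Silent modifiers had 2 of 10, 1 in each direction, eag-related subunits 1 of 8 and Kcnq subunits 1 of 3, both higher, and the other genes 0 of 3. The shares of two-pore channels (15.4%) and eag-related subunits (12.5%) did not exceed the 15.8% of all genes.

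**Figure D2:**
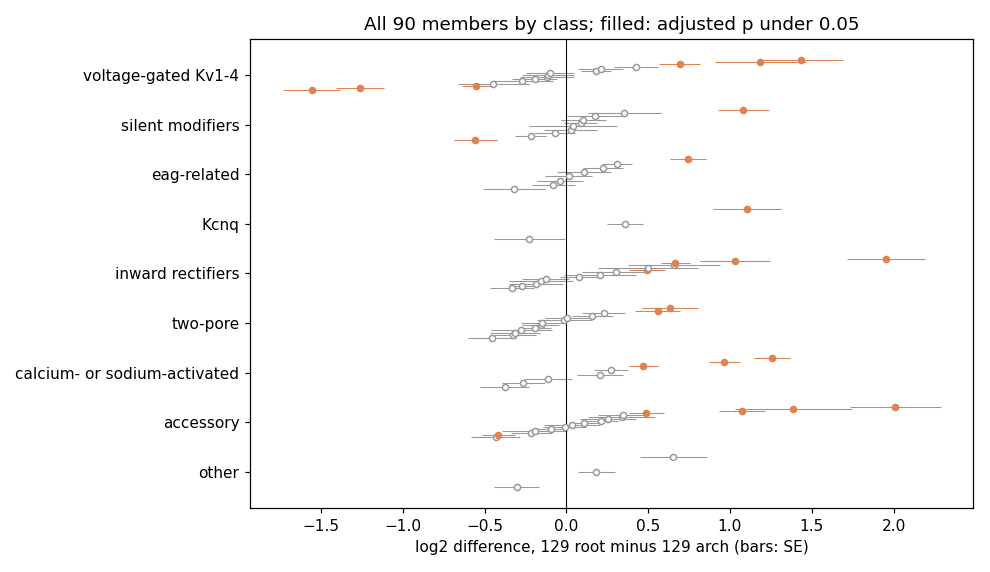
Log2 difference, 129 root minus 129 arch (horizontal axis), of all 90 members by class (vertical axis), with bars for the standard error and filled points for an adjusted p under 0.05. The accessory subunit Kcnip2 (2.01) and the inward rectifier Kcnj5 (1.95) lie farthest to the right, and Kcna4 (-1.56) and Kcna3 (-1.26) farthest to the left.

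Genes of the atrial acetylcholine-activated channel were higher in root. Kcnj5 and Kcnj3 encode the inward rectifier subunits that pair to form this channel, which slows the heart under vagal tone. Kcnj5 was 6.66, 7.02 and 6.63 in root and 4.27, 5.05 and 5.12 in arch, 3.87-fold higher (log2 difference 1.95 ± 0.24, adjusted p = 0.00203). Kcnj3 was 6.53, 5.86 and 5.93 in root and 4.82, 5.35 and 5.06 in arch, a log2 difference of 1.03 ± 0.21 (adjusted p = 0.0184). Neither gene's groups overlapped. The call of Kcnj3 was lost without arch replicate 1 or 3 (adjusted p of 0.0247 to 0.0578 over the fits that left out 1 array), with the mean of its 2 clusters, where the log2 difference was 0.48 (adjusted p = 0.0548), and with the replicate number as a block (adjusted p = 0.0675). With all 12 arrays in 1 fit, neither Kcnj3 (adjusted p = 0.608) nor Kcnj5 (adjusted p = 0.184) passed.

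Subunits of the transient outward current, which shapes early repolarisation of the heart, did not move as one. Kcnip2, Kcnip3, Kcnd2 and Kcnd1 were higher, Kcnip4 and Kcna4 were lower and Kcnd3 did not pass the test. The accessory subunit Kcnip2, which binds the Kv4 pores and brings them to the membrane, was 5.02, 5.98 and 5.49 in root and 3.90, 3.40 and 3.17 in arch, 4.03-fold higher (log2 difference 2.01 ± 0.28, adjusted p = 0.00333). Its arch values lie near the low end of the arrays, so that the size of this fold is uncertain. The pore Kcnd2 was 6.04, 6.65 and 5.75 in root and 4.44, 5.06 and 4.63 in arch, 2.70-fold higher (1.44 ± 0.26, adjusted p = 0.01), and did not pass with all 12 arrays in 1 fit (adjusted p = 0.248). The related pore Kcnd1 was higher by 0.69 ± 0.12 on the log2 scale (adjusted p = 0.0101), whereas Kcnd3 did not pass the test (0.18 ± 0.09, adjusted p = 0.254). Kcnip3, a calcium-binding relative of Kcnip2 that also acts as a transcriptional repressor, was 8.08, 8.17 and 8.12 in root and 6.82, 6.98 and 7.35 in arch (1.07 ± 0.14, adjusted p = 0.00278). Kcnip4 was lower instead, at 6.31, 6.00 and 6.14 in root and 6.55, 6.59 and 6.56 in arch (-0.42 ± 0.10, adjusted p = 0.0355), and it failed in 5 of the 6 fits made with an array omitted.

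Kcnq1 and Kcne1, the pore and the accessory subunit of the slow delayed rectifier of the heart, both rose. Kcnq1 was 6.23, 6.68 and 6.14 in root and 5.34, 4.88 and 5.52 in arch, 2.15-fold higher (log2 difference 1.10 ± 0.21, adjusted p = 0.0121). Kcne1 was 4.79, 6.13 and 6.20 in root and 4.27, 4.25 and 4.44 in arch (1.39 ± 0.36, adjusted p = 0.0419). Root replicate 1 was well below the other root arrays for Kcne1, and among the 6 fits made with an array omitted the call held only without that one (adjusted p of 0.00066 to 0.123). Kcnq1ot1, the non-coding RNA transcribed antisense within Kcnq1, was 7.13, 6.59 and 6.85 in root and 6.35, 5.81 and 6.45 in arch, without overlap but short of the threshold (0.65 ± 0.21, adjusted p = 0.0789). Kcne4, which inhibits Kcnq1 channels, was 8.05, 7.90 and 7.99 in root and 7.34, 7.49 and 7.64 in arch (0.49 ± 0.11, adjusted p = 0.022), and passed in 2 of the 6 fits made with an array omitted (adjusted p of 0.0222 to 0.0803).

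Of the 13 measured members of a list of heart channels, 7 were higher in root and 2 lower, with a median log2 difference of 0.660, that is 69.2% called against 15.8% of all genes (8.36% higher and 7.45% lower). The list was chosen with earlier results of these data known, so that its share is a description and not a test. The 2 lower ones, Kcna4 and Kcna5, and Kcnd2, Kcnip2, Kcnq1, Kcne1, Kcnj12, Kcnj3 and Kcnj5 were the 9 called. The 7 higher ones all had mean levels below that of the median gene, so that the size of their differences is uncertain. Kcnj12, a strong inward rectifier of the resting potential, was higher by 0.49 ± 0.11 on the log2 scale (adjusted p = 0.026), and passed in 2 of the 6 fits made with an array omitted (adjusted p of 0.0354 to 0.0876). The main ventricular inward rectifier Kcnj2 was 5.46, 6.02 and 5.41 in root and 5.08, 4.40 and 5.42 in arch, with overlap (0.66 ± 0.28, adjusted p = 0.174). Kcnj11, the pore of the ATP-sensitive channel of the heart, also overlapped (0.21 ± 0.22, adjusted p = 0.595), and Kcnh2 separated without passing the test (0.31 ± 0.09, adjusted p = 0.0694). Heart muscle markers moved the same way, 10 of 13 higher with a median log2 difference of 2.446, and their part in these differences was not tested. The 3 not called, Myl4, Myl7 and Sln, overlapped between root and arch. Myl7 was 9.72, 6.97 and 7.81 in root and 7.30, 8.13 and 8.37 in arch.

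**Figure D3:**
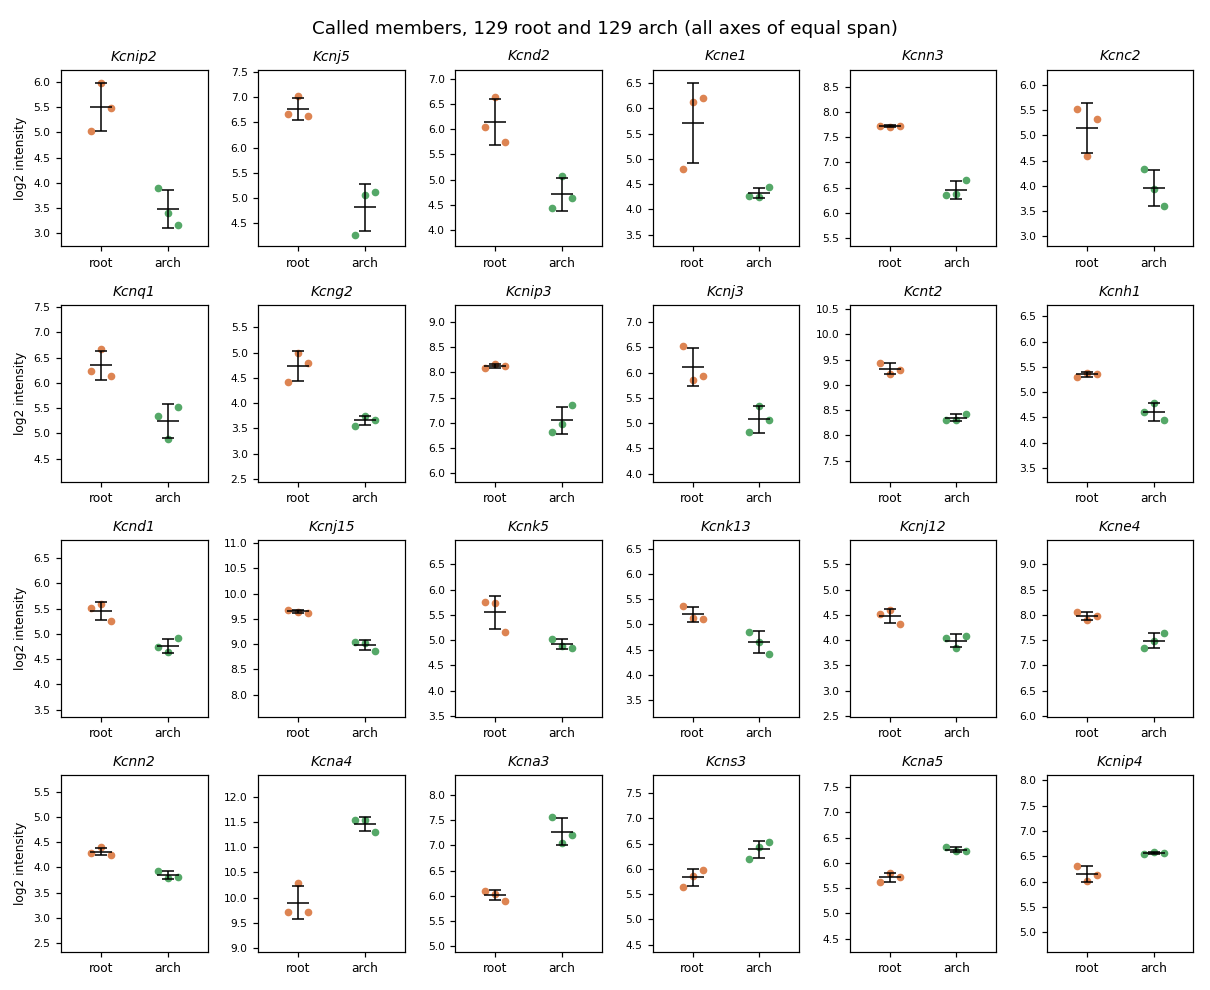
Log2 intensity (vertical axes, all of equal span) of the 24 members that passed the test, with 3 arrays of 129 root on the left and 3 of 129 arch on the right of each panel and bars for mean ± SD. The 19 higher members come first, from Kcnip2 to Kcnn2, and the 5 lower ones, Kcna4, Kcna3, Kcns3, Kcna5 and Kcnip4, last.

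Channels of the calcium- and sodium-activated class that passed were all higher. Kcnn3, a small-conductance calcium-activated channel that carries endothelium-dependent hyperpolarisation, was 7.73, 7.69 and 7.72 in root and 6.35, 6.37 and 6.66 in arch, 2.39-fold higher (log2 difference 1.26 ± 0.11, adjusted p = 0.000467), the smallest adjusted p of the members. Kcnt2 was 9.43, 9.22 and 9.30 in root and 8.31, 8.31 and 8.43 in arch (0.96 ± 0.09, adjusted p = 0.000802). Kcnn2, of the same family as Kcnn3, rose by 0.47 ± 0.09 (adjusted p = 0.0136), and failed only without root replicate 2 among the fits made with an array omitted (adjusted p of 0.0221 to 0.0526). Its call was also lost with a robust trended variance prior and with all 12 arrays in 1 fit. Kcnn4, the intermediate-conductance channel of endothelium and lymphocytes, was 6.68, 6.77 and 6.80 in root and 7.33, 6.80 and 7.25 in arch, and did not pass the test (-0.38 ± 0.15, adjusted p = 0.15). Of 7 endothelial markers, Emcn (log2 difference 1.83) and Tek (0.46) were higher in root, Kdr (-0.84) was lower and 4 were not called. Their summed intensity was 7936 to 8392 in root and 6758 to 7355 in arch.

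Kcnj15 was 9.68, 9.64 and 9.62 in root and 9.05, 9.03 and 8.87 in arch (log2 difference 0.67 ± 0.09, adjusted p = 0.00286). The eag-family pore Kcnh1 was 5.30, 5.38 and 5.36 in root and 4.60, 4.78 and 4.44 in arch (0.74 ± 0.11, adjusted p = 0.00451). Kcng2, a silent modifier that assembles with Kv2 pores, was 4.42, 5.00 and 4.79 in root and 3.56, 3.74 and 3.67 in arch (1.08 ± 0.15, adjusted p = 0.00399). These levels of Kcnh1 and Kcng2 lie below that of the median gene. The remaining members that rose were also dim, namely the Kv3 pore Kcnc2 (1.18 ± 0.28, adjusted p = 0.0296) and the two-pore background channels Kcnk5 (0.63 ± 0.17, adjusted p = 0.0472) and Kcnk13 (0.56 ± 0.14, adjusted p = 0.0364). Each of these 3 calls failed in 4 or 5 of the 6 fits made with an array omitted.

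Of the 5 members that fell, 3 were Kv1 pores. Kcna4 was 9.71, 10.28 and 9.71 in root and 11.53, 11.54 and 11.29 in arch, 2.94-fold lower in root (log2 difference -1.56 ± 0.17, adjusted p = 0.00138). Kcna3, the Kv1 channel of T lymphocytes that also occurs in other cells, was 6.10, 6.03 and 5.91 in root and 7.57, 7.05 and 7.21 in arch (-1.26 ± 0.15, adjusted p = 0.00157). Kcna5, a pore of the delayed rectifier of arterial smooth muscle and atrium, was 5.62, 5.80 and 5.72 in root and 6.32, 6.24 and 6.23 in arch (-0.55 ± 0.09, adjusted p = 0.00644). None of these groups overlapped. With all 12 arrays in 1 fit Kcna4 (adjusted p = 0.0755) and Kcna5 (adjusted p = 0.483) did not pass, whereas Kcna3 did, and with the mean of its 2 clusters the difference of Kcna4 was -0.69 (adjusted p = 0.0106). Kcns3, a silent subunit that modifies Kv2 channels, fell by 0.56 on the log2 scale (SE 0.13, adjusted p = 0.0308), and passed in 2 of the 6 fits made with an array omitted (adjusted p of 0.029 to 0.0928). Kcna2, another Kv1 pore of vascular smooth muscle, was 5.96, 6.02 and 5.97 in root and 6.48, 6.05 and 6.01 in arch, and did not pass the test (-0.19 ± 0.14, adjusted p = 0.403).

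Brown fat markers, 4 of 4, and T cell markers, 6 of 7, were lower in root, with median log2 differences of -5.026 and -2.049, and their part in the lower Kcna values was not tested. Of the 11 measured vascular smooth muscle channels, 2 were higher in root (Kcnj12 and Kcnq1) and 2 lower (Kcna5 and Kcns3), with a median log2 difference of 0.159, that is 36.4% called against 15.8% of all genes. This list too was chosen with earlier results of these data known, so that its share is a description. Of the other channels listed, Kcnq5, a Kcnq pore also found in arteries, was 7.22, 6.94 and 7.04 in root and 6.59, 6.80 and 6.74 in arch, without overlap (0.36 ± 0.11, adjusted p = 0.0716), and the two-pore channel Kcnk6 overlapped (0.16 ± 0.13, adjusted p = 0.466). The 66 members that were not called had log2 differences of -0.45 to 0.66.

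Genes that act beside the channels were also examined, from a list of 35 of which 28 were measured. In root, 5 were higher and 1 was lower, that is 21.4% called, near the 15.8% of all genes. Atp1b1, a subunit of the sodium-potassium pump, was higher by 1.19 ± 0.12 on the log2 scale (adjusted p = 0.00101), and Ryr2, the calcium release channel of heart and smooth muscle, by 1.43 ± 0.21 (adjusted p = 0.00454). The T-type calcium channel Cacna1g (1.07 ± 0.21, adjusted p = 0.0143) and the mechanosensitive or osmosensitive channels Trpv4 (0.82 ± 0.15, adjusted p = 0.0104) and Piezo1 (0.37 ± 0.08, adjusted p = 0.0263) rose as well. Itpr2, an intracellular calcium release channel, fell by 0.68 (SE 0.11, adjusted p = 0.00579).

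Between strains, the arch comparison asked which channel genes differ in expression among the parental lines of the atherosclerosis crosses. None of the 90 members passed an adjusted p of 0.05 (limma over the 9 arch arrays and 22180 genes) in DBA against 129, B6 against 129 or DBA against B6, in comparisons where 1.44%, 1.45% and 1.55% of all genes passed. At an unadjusted p under 0.05 there were 13, 9 and 11 members, or 14.4%, 10% and 12.2%, against 12%, 12.1% and 12.5% of all genes. Groups did not overlap for 18, 11 and 13 members, or 20%, 12.2% and 14.4%, against 20.9%, 17.5% and 17.1% of all genes. Member differences ran from -1.01 to 1.81 on the log2 scale. These shares lay near those of all genes, or below them.

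The members nearest to the threshold between DBA and 129 arch were Kcnq3, a subunit of the M current, and Kcnc4, both with higher values in DBA. Kcnq3 was 6.29, 6.35 and 6.36 in DBA arch, 5.99, 5.35 and 5.76 in B6 arch and 4.94, 5.29 and 5.75 in 129 arch. DBA lay above both other strains on every array, and was 2.01-fold that of 129 (SE 0.22 on the log2 scale, adjusted p = 0.0684). It passed without B6 arch 1 (adjusted p = 0.0482) or without 129 arch 3 (adjusted p = 0.0458), and not without both arrays that stood apart (adjusted p = 0.109). Kcnc4 was 7.77, 7.97 and 8.34 in DBA arch, 7.64, 7.35 and 7.70 in B6 arch and 7.47, 7.14 and 7.07 in 129 arch, a log2 difference from 129 of 0.80 ± 0.18 in DBA (adjusted p = 0.0771). Kcng3, a silent modifier of Kv2 channels, was 4.23, 3.91 and 3.81 in DBA arch, 4.70, 4.47 and 3.68 in B6 arch and 4.71, 5.09 and 4.86 in 129 arch, and its DBA values lay below all 129 values (-0.90 ± 0.25, adjusted p = 0.155). It passed without B6 arch 3 (adjusted p = 0.0439).

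Kcne4 was 8.64, 8.20 and 8.83 in DBA arch, 9.03, 7.98 and 8.28 in B6 arch and 7.34, 7.49 and 7.64 in 129 arch. Every array of DBA and B6 exceeded every 129 arch array, and the log2 differences from 129 were 1.07 ± 0.26 for DBA, at an adjusted p of 0.112, and 0.94 ± 0.26 for B6, at an adjusted p of 0.166. Without B6 arch 1, which was the highest Kcne4 value and shares in the estimate of spread, the DBA difference passed (1.07 ± 0.18, adjusted p = 0.0255). Without both arrays that stood apart it was 1.25 ± 0.15 (adjusted p = 0.00935).

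Kcnh2 was 8.84, 8.89 and 8.86 in DBA arch and 8.54, 7.85 and 8.20 in B6 arch, higher in DBA on every array (log2 difference 0.67 ± 0.16, adjusted p = 0.0963). Without B6 arch 1 it passed the test (0.84 ± 0.13, adjusted p = 0.0199), and without both arrays that stood apart it did not (0.83 ± 0.15, adjusted p = 0.0541). Kcnab1, a Kv1 accessory subunit, was 6.91, 6.29 and 6.81 in DBA arch, 7.91, 7.88 and 7.26 in B6 arch and 7.19, 6.55 and 6.69 in 129 arch. B6 was the highest strain, and the DBA minus B6 difference was -1.01 ± 0.25 (adjusted p = 0.0971). Kcnt2 was lower in B6 than in 129 without B6 arch 1 (-0.77 ± 0.12, adjusted p = 0.0266), and not with it (-0.57 ± 0.17, adjusted p = 0.185). Kcna3 was 5.97, 6.70 and 6.74 in B6 arch and 7.57, 7.05 and 7.21 in 129 arch, without overlap (-0.80 ± 0.24, adjusted p = 0.202).

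Among the partner genes, only Dpp10, an accessory subunit of Kv4 channels, passed between strains, by 0.98 ± 0.19 on the log2 scale in B6 over 129 arch (adjusted p = 0.0465). That is 1 of 28 (3.57%), against 1.45% of all genes. Dpp10 was 5.02, 4.47 and 4.66 in B6 arch and 3.73, 3.45 and 4.05 in 129 arch. Its mean level lay below that of the median gene, and its highest value was on B6 arch 1, which stood apart. Whether the call holds with arrays left out was not tested.

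The array DBA arch 2 carried most of the spread of several members. Kcnj3 was 9.58 on DBA arch 2, against 4.58 and 4.41 on the other DBA arrays, the widest range of any member within a group. Kcnj5 was 8.51 there, against 4.31 and 4.95, and Kcnd2 was 7.61, against 4.11 and 4.42. Kcnq1 (7.16, against 5.11 and 5.01), Kcnip2 (5.54, against 3.02 and 3.35) and Kcng2 (5.32, against 3.79 and 3.16) showed the same. These 6 were all called higher in root, but members not called in root were high on DBA arch 2 as well. Kcnj11 lay 1.72 above the mean of the other DBA arrays on the log2 scale, Kcnj2 1.31 and Kcnj14 1.05, against 1.84 for Kcng2. The DBA minus 129 differences of Kcnj3 and Kcnj5, 1.11 ± 1.15 and 1.11 ± 0.93, thus rest on this array, and without both arrays that stood apart the Kcnj3 difference was -0.58 ± 0.17 (adjusted p = 0.175). Of the 19 members higher in root, 8 (42.1%) had their highest arch value on DBA arch 2, against 22% of all genes higher in root. The same held for 21 of all 90 members (23.3%), called or not, against 11.1% of all genes, so that it is not particular to members higher in root. On B6 arch 1 lay the highest arch value of 6 of the 19 (31.6%), against 37.5% of all genes higher in root. Kcne1 did not stand out on DBA arch 2, at 4.14, 4.23 and 3.94 in DBA arch.

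On B6 arch 1 the Kv1 pores Kcna3, Kcna4 and Kcna5 were low, while the other Kv1 pores were not. Kcna1, Kcna2 and Kcna7 had their highest B6 value there, and Kcna6 and Kcna10 lay between the other B6 arrays. Kcna4 was 9.34 on that array, against 11.81 and 11.43 on the other B6 arrays, Kcna5 was 4.74, against 6.88 and 6.75, and Kcna3 was 5.97, against 6.70 and 6.74. Each was the lowest of the 9 arch values, as held for 63.6% of all genes lower in root. Kcnn3 was 7.55 on B6 arch 1, against 6.37 and 6.61, the highest arch value. Without B6 arch 1, Kcna5 was lower in DBA than in B6 arch by a log2 difference of -0.74 ± 0.10 (adjusted p = 0.0134), and without both arrays by -0.76 ± 0.12 (adjusted p = 0.0333), whereas with all arrays it was -0.05 ± 0.47 (adjusted p = 0.983). Of the other members with wide ranges within a group, Kcna1 (4.81 to 6.02) and Kcnv2 (2.93 to 4.09) had their highest DBA value on DBA arch 2, and Kcng3 ran from 3.68 to 4.70 in B6 arch. Kcng1 ran from 3.31 to 4.43 in 129 arch, Kcnj14 from 5.14 to 6.27 in 129 root and Kcnk2 from 4.17 to 5.15 in B6 arch.

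**Figure D4:**
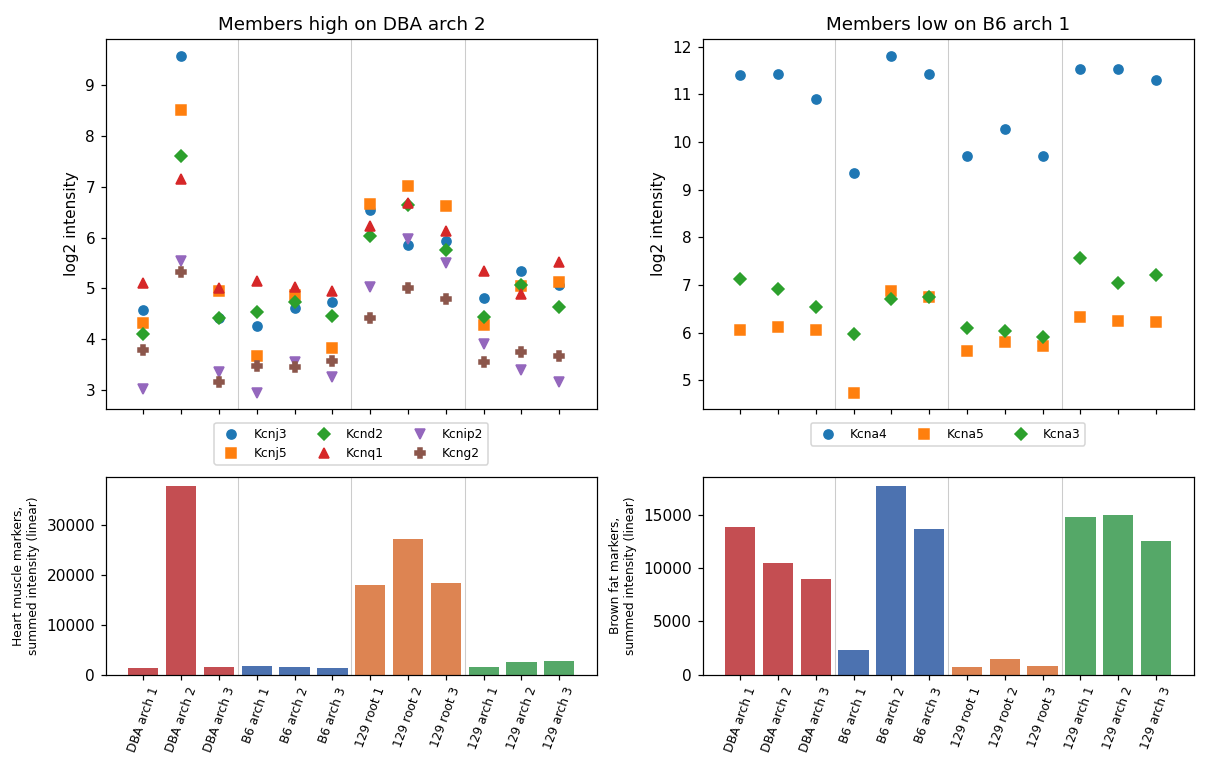
Upper panels show log2 intensity of 6 members that were high on DBA arch 2 (left) and 3 members that were low on B6 arch 1 (right), by array. Lower panels show the summed linear intensity of 13 heart muscle markers (left) and 4 brown fat markers (right) on the same arrays. The heart muscle sum was 37670 on DBA arch 2 and 17880 to 27080 in 129 root, and the brown fat sum 2360 on B6 arch 1 and 702.5 to 1492 in 129 root.

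For 7 members a second cluster was measured and not used. That of Kcnma1 was 11.25, 10.78 and 11.06 in DBA arch, 3.56, 3.86 and 4.10 in B6 arch, 3.09, 3.75 and 3.40 in 129 root and 3.51, 3.81 and 3.91 in 129 arch. DBA lay far above the other groups on all 3 arrays, while the brighter cluster of the same gene ranged from 9.60 to 10.25 over all groups. The second clusters of Kcna4 and Kcnj3 were dim and did not follow the first ones between root and arch (log2 differences 0.18, adjusted p = 0.284, and -0.07, adjusted p = 0.691).

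**Figure D5:**
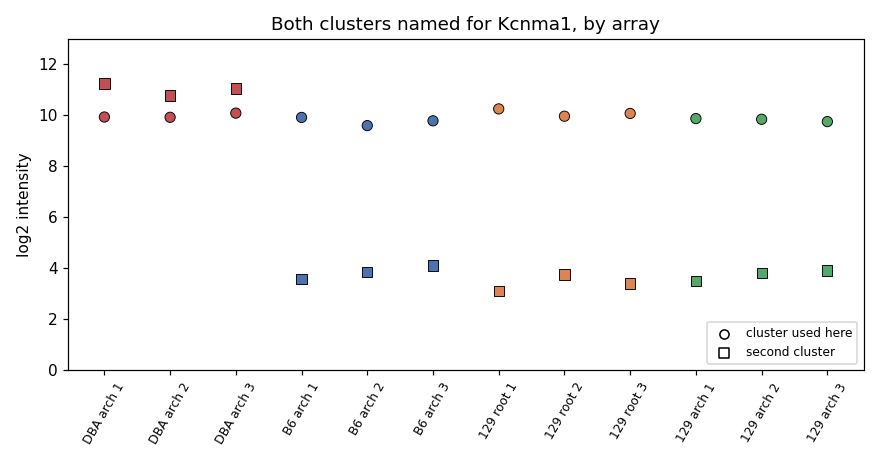
Log2 intensity (vertical axis) of both clusters named for Kcnma1 on the 12 arrays (horizontal axis), with circles for the cluster used and squares for the second one. The squares lie at 10.78 to 11.25 on the DBA arrays and at 3.09 to 4.10 on all others, whereas the circles stay at 9.60 to 10.25.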

How the data were processed

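Total RNA of pooled aortas was run on 1 plate of Mouse Gene 2.1 ST arrays, and Affymetrix Expression Console is named in the submitters' processing notes. The deposited values are log2 intensities per transcript cluster, normalised by the authors. The normalisation method, the software version, the genome build and any detection calls were not given in the sources used here. The number of arrays limits the precision.

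Of 41345 clusters, 23521 carried 1 gene symbol in the platform annotation, 1820 carried several and 16004 none. Only clusters with 1 symbol were used, and a gene with several was represented by the brightest, judged by the mean over 12 arrays, which gave 22180 genes. Of the 90 members, 7 had more than 1 cluster. All members were found in the reference by gene ID.

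limma 3.58.1 (R 4.3.3) was fitted to all genes, with the 9 arch arrays in 1 model for the strains and the 6 arrays of 129 mice for root minus arch. p-values were two-sided and adjusted by Benjamini-Hochberg, with a threshold of 0.05. Replicates were separate pools per the labels, so that p-values measure the spread between pools. The procedure was tested on simulated data.

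The members, the marker, heart, vascular and partner lists and the alternatives were chosen with earlier results of these data known. Named are all called members, the 10 with the highest means, members of lists of heart, vascular and endothelial or lymphocyte channels, the 6 others with the widest range within a group, and called partner genes. Kcnab1, Kcnq3, Kcnq1ot1 and Abcc9 were named after their values were seen. Alternatives were a filter on dim genes, other normalisations and variance priors, other sets of arrays, the mean of a gene's clusters, a minimum fold, a replicate block, the Tukey-Kramer test of the study's methods and each array left out. Treating every cluster as its own feature was added after seeing the data. The reference held promoters but no genome.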

Additional observations from a re-analysis of the deposited data

Results flagged for a closer look

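The second cluster named for Kcnma1 lay outside the measurement of one cluster per gene and carried a signal in DBA arch that the other groups did not show. It averaged 11.03 ± 0.24 (SD) in DBA arch, 3.84 ± 0.27 in B6 arch and 3.74 ± 0.21 in 129 arch (n = 3 each). With every cluster fitted as its own feature (23521 features, limma), the log2 difference was 7.29 ± 0.18 for DBA minus 129 arch (adjusted p = 1.94e-07) and 7.19 ± 0.18 for DBA minus B6 arch (adjusted p = 2.61e-07). The values in B6 and 129 lie near the low end of the arrays and have no detection calls, so that the size of the difference is uncertain and no fold is given. The cluster used for Kcnma1 differed by 0.16 ± 0.11 between DBA and 129 arch (adjusted p = 0.675 over genes). A cause of the difference between the clusters was not tested.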

How the results depend on the processing

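For root minus arch, 24 members were called, and 17 to 19 when 1 array was left out. The count was 14 without the dimmer 50% of genes (8 higher, 6 lower, 10 of them among the 24), 12 with all 12 arrays in 1 fit (9 higher, 3 lower, 11 among the 24, with Kcna4, Kcna5, Kcnd2, Kcng2, Kcnh1, Kcnj3, Kcnj5 and Kcnq1 among those no longer called) and 12 with a difference of at least 2-fold as well. In all fits that left out 1 array 14 of the 24 were called. In every alternative fit that held the gene, 7 were called, with the minimum fold and the fit of every cluster not counted. These were Kcna3, Kcnd1, Kcnip2, Kcnip3, Kcnj15, Kcnn3 and Kcnt2. The filter on dim genes left out Kcnd1 and Kcnip2, so that they were not tested there. Kcnd1 (0.69), Kcnj15 (0.67) and Kcnt2 (0.96) fell short of a 2-fold difference. Subtracting each array's median moved the median of all genes in root minus arch to -0.111 from 0.001. For DBA minus 129 arch none were called in the fit as reported, 1 without the dimmer 50% of genes (Kcnc4), 2 with a robust trended prior (Kcnc4 and Kcnq3), 3 with all 12 arrays (Kcnc4, Kcne4 and Kcnq3), 2 with the 6 arrays of the contrast alone (Kcne4 and Kcng3), 1 with the mean of a gene's clusters and 1 with every cluster as its own feature (both Kcnma1), 1 without both arrays that carry markers of other organs (Kcne4), 5 by the Tukey-Kramer test unadjusted over genes and 0 to 2 with 1 array left out (Kcne4 and Kcnq3 without B6 arch 1, Kcng3 without B6 arch 3, Kcnq3 without 129 arch 3). For B6 minus 129 arch the count of 0 became 1 without both arrays (Kcnt2), 3 by the unadjusted Tukey-Kramer test and 0 to 1 with 1 array left out (Kcnt2, without B6 arch 1). For DBA minus B6 arch it became 1 without the dimmer 50% of genes and 1 with the robust trended prior (both Kcnh2), 2 with all 12 arrays (Kcnab1 and Kcnh2), 1 with the mean of clusters and 1 with every cluster (both Kcnma1), 1 without both arrays (Kcna5), 3 by the unadjusted Tukey-Kramer test and 0 to 2 with 1 array left out (Kcna5 and Kcnh2, without B6 arch 1). After Benjamini-Hochberg adjustment, the Tukey-Kramer test called 0 members between any strains. The shares of all genes called in these alternatives were not counted. The unadjusted Tukey-Kramer counts in particular cannot be told from the background, and none of these counts sets the members apart from all genes.

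Same-numbered arrays deviated together weakly or not at all (correlations of -0.089 to 0.111). In root minus arch they had 0.042 to 0.054, against -0.028 to -0.018 for differently numbered arrays. In DBA minus 129 arch they had 0.051 to 0.062, against -0.059 to 0.004, while the other strain comparisons had both signs. These small values do not settle whether the replicate numbers pair the samples, and the main fits used no pairing. With the replicate block, 20 members were called in root minus arch, 19 of them among the 24, and 0 in each strain comparison. Among values that were not called, Kcna5 in B6 minus 129 arch was -0.14 with all arrays and 0.55 without B6 arch 1, and Kcnj3 in DBA minus 129 arch was 1.11 with all arrays and -0.58 without both arrays that carry markers of other organs. Members with levels below the median gene are measured close to the floor of the arrays, which limits what differences can be seen in them.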
